A study of Homo sapiens with 8 samples.

Results

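The genes described here are 10 regulators of mitosis, AURKA, AURKB, PLK1, CDK1, CCNA2, CCNB1, CCNB2, CDC25B, CDC25C and WEE1, chosen by symbol from the 58884 genes of the deposited table. They were measured by poly(A)-selected RNA sequencing in C4-2, a human castration-resistant prostate cancer cell line derived from LNCaP. The cells grew in serum-containing medium and received for 48 h either the solvent DMSO (4 libraries) or 1 µM DTHIB, also labelled E12, named by the submitters as acting directly on the heat shock transcription factor HSF1 (4 libraries). Separate cultures are not named for the replicates, so each p-value reflects just the variation among these libraries, which may be technical. All 10 genes were found and all 10 passed the filter of a mean of at least 10 normalized counts, as did 17194 genes in all.

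Cells enter mitosis when CDK1, bound to an A-type or B-type cyclin, becomes active. WEE1 holds CDK1 back by phosphorylating it, the CDC25 phosphatases remove that phosphate, and PLK1, itself switched on by AURKA with its cofactor BORA, favours CDC25 and marks WEE1 for destruction. AURKB works later, on chromosomes and the midzone, as the kinase of the chromosomal passenger complex. The transcripts of most of these genes rise in G2 and fall in G1: their promoters carry CCAAT boxes, bound by NF-Y, and a cell cycle homology region (CHR), bound by the repressive DREAM complex in resting cells and by B-MYB and FOXM1 with the MuvB core in G2.

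Library depth was 27229291 to 30926053 recovered reads, and no library stood apart from its group, with Pearson coefficients of 0.993 to 0.994 across genes between replicates. All 9 luminal prostate markers were present, KLK3 and FOLH1 among them, with a summed level of 216149 to 220554 normalized counts in DMSO and 263517 to 269377 in DTHIB. KLK3 had the largest share of that sum, with means of 66682 and 93753 normalized counts. The markers did not all go one way: mean counts of KRT8 were 13068 and 10270, of HOXB13 10595 and 9137, and of KRT18 8271 and 7665, in DMSO and DTHIB. The basal, stromal, endothelial and blood markers summed to at most 31.8, 66.8, 193 and 9.65 normalized counts in any library. DMSO and DTHIB ranges overlapped for each of these 4 classes. Of these markers, 1 of 4 blood markers was at 0 in all libraries.

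Promoters of several members are shown first because they hold the shared elements of this gene class. Of the 10 genes, 8 have promoter windows of 300 bases (250 before and 50 after an annotated start) in RefSeq on GRCh38.p14, 16 windows in all; AURKA and WEE1 were not matched. The 130 bases just upstream of a start are printed for 6 genes, 5′ to 3′ on the gene's own strand. Capitals mark a CCAAT box (CCAAT, or ATTGG where it lies on the other strand) or a CHR-like element (TTTGAA or TTCGAA).
CCNB2, chr15:59105016-59105145, plus strand: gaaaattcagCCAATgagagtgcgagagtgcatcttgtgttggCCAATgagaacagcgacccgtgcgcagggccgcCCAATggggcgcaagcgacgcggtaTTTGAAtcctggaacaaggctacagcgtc
CCNB1, chr5:69167020-69167149, plus strand: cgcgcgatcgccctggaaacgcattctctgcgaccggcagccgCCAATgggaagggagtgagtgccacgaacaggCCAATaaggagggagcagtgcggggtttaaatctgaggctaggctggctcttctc
CDK1, chr10:60778348-60778477, plus strand: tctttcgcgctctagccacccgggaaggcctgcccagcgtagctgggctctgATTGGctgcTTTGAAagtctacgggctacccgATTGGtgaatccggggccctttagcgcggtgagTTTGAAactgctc
PLK1, chr16:23678759-23678888, plus strand: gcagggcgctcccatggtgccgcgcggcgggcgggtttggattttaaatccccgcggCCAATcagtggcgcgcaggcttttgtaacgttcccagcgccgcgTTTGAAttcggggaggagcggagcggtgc
CDC25C, chr5:138331805-138331934, minus strand: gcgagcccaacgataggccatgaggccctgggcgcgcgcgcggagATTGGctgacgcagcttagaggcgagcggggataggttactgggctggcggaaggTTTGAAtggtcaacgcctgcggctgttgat
CDC25B, chr20:3796180-3796309, plus strand: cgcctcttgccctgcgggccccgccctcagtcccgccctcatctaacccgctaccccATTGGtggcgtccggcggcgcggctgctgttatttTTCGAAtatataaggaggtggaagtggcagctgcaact

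Counted by first base upstream of the start, a TTTGAA lay at 29 bases in CCNB2, at 29 in PLK1 and at 30 in CDC25C, and TTCGAA lay at 38 in CDC25B. CDK1 differed: from the start used in the printed stretch its TTTGAA matches lay at 69 and 13 bases upstream and, on the other strand, 10 after the start, and from its other start at 161 upstream. The TTTGAA of a second CDC25C window lay 44 bases after that window's start. Neighbouring CCAAT boxes were 33, 33 and 124 bases apart in CCNB2, 32 apart in CCNB1, 32 apart in CDK1, and 17 and 188 apart in the second CDC25C window. A CCAAT box on either strand was in at least 1 window of all 8 matched genes, against 39.7% of the 27305 genes with windows. It was in 12 of the 16 windows of the matched genes, against 34.6% of all 35116 windows. TTTGAA was in windows of 4 genes (CCNB2, CDC25C, CDK1 and PLK1), against 18.2% of all genes, and in 6 windows, against 15.2% of all windows. The palindrome TTCGAA was in 1 window, of CDC25B, against 1.82% of all genes and 1.45% of all windows. Both kinds of element together were in 7 windows of 5 genes, against 6.38% of all windows and 7.85% of all genes. Windows of 1 gene can overlap, so that 1 site can count in more than 1 window, and are not independent. An E2F-like element (TTTGGCGC, TTTCGCGC or TTTCCCGC, either strand) was in both CDK1 windows and in no other window of the matched genes, against 2.74% of all windows. A heat shock element (GAA, TTC and GAA, or TTC, GAA and TTC, with 2 bases between neighbouring triplets, either strand) was in 0 of the 16 windows and in 0.490% of all windows. Only TTTGAA and TTCGAA were searched as CHR-like forms, so a gene without them, such as CCNB1 or CCNA2, is not shown to lack a CHR. A match describes the letters in the window, not binding, and nothing about a factor follows from its lack.

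All 10 genes were lower in DTHIB. Each fell by limma with Benjamini-Hochberg adjustment over all tested genes (adjusted p = 1.5e-14 to 2.5e-10), where 33.7% of tested genes fell and 64.6% changed in either direction, and in each the 4 DTHIB values lay below the 4 DMSO values, as they did in 30.8% of tested genes (the reverse held in 27.1%). With recovered reads, all 10 also fell by edgeR's quasi-likelihood test and by DESeq2, where 32.4% and 30.3% of tested genes fell. In 9 of the 10 the fall was at least 2-fold on the fitted log2 scale, a size reached by 4.36% of tested genes. The median log2 fold change was -1.57, against -0.01 over all tested genes. CCNA2 fell most, to 26.4% of its DMSO mean, and WEE1 least, to 51.4%. In bulk RNA, fewer cells in G2 and mitosis and less of these transcripts per cell cannot be told apart.

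**Figure D1:**
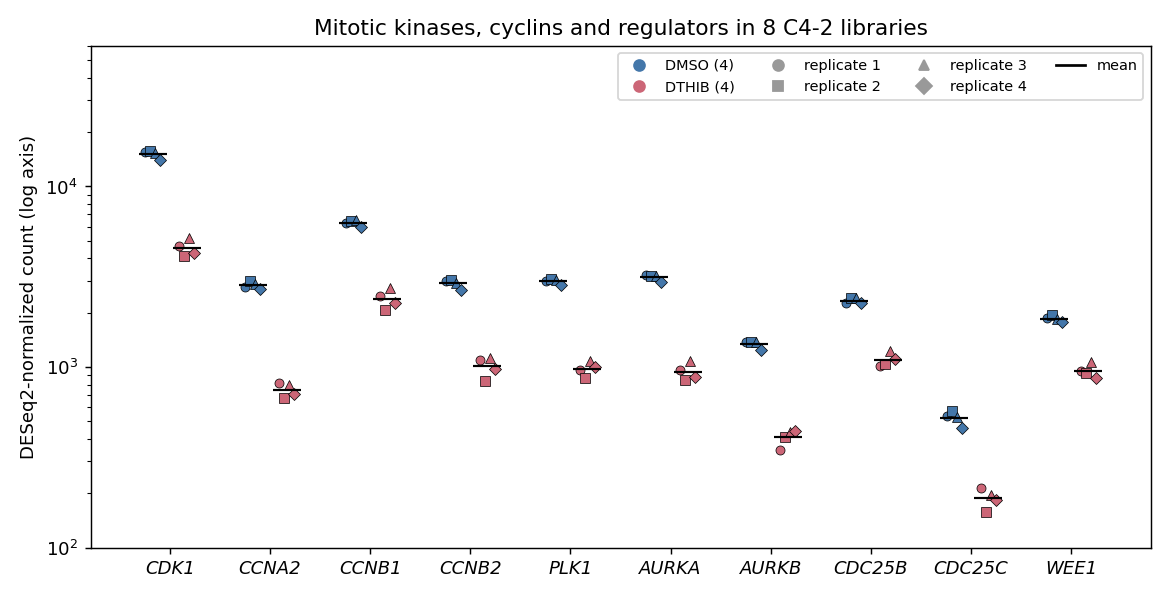
DESeq2-normalized counts (log axis) of the 10 genes in each of the 4 DMSO and 4 DTHIB libraries, with marker shapes for the replicate number and black bars for group means. In every gene the 4 DTHIB points sit below the 4 DMSO points; the smallest distance, in WEE1, is that of 1783 in the lowest DMSO library to 1062 in the highest DTHIB library.

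The central kinase CDK1 (chromosome 10, 60778331 to 60794852 on GRCh38) held 15565, 15813, 15398 and 14052 normalized counts in DMSO replicates 1 to 4, and 4666, 4135, 5215 and 4290 in DTHIB replicates 1 to 4. DMSO replicate 4 was the lowest of its group and still 2.69 times the highest DTHIB library. CDK1 fell by 1.74 on the log2 scale (SE 0.056; adjusted p by limma = 6.3e-14; n = 4 libraries per group here and below). Its means were 15207 ± 789 (SD) and 4576 ± 481.

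Cyclin A2 (CCNA2, chromosome 4, 121816444 to 121823933), which partners CDK2 in S phase and CDK1 in G2, had DMSO values of 2782, 3007, 2890 and 2692 normalized counts and DTHIB values of 814, 674, 799 and 713. No other member had a wider gap: the lowest DMSO library was 3.31 times the highest DTHIB library. On the log2 scale it fell by 1.92 (SE 0.055), and 88 of the 17194 tested genes had a lower fold change. Part of CCNA2 is hard to count: 254 of its exonic bases (9.08%) overlap exons of EXOSC9 on the opposite strand, and no source used here states whether counting used strand. EXOSC9 had a mean of 1322 normalized counts in DMSO and 947 in DTHIB.

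The B-type cyclins carry CDK1 into mitosis. Cyclin B1 (CCNB1, chromosome 5, 69167010 to 69178245), the main partner of CDK1 at entry, had 6294, 6455, 6539 and 5977 normalized counts in DMSO and 2479, 2068, 2730 and 2267 in DTHIB, a log2 fold change of -1.41 (SE 0.060). Cyclin B2 (CCNB2, chromosome 15, 59105078 to 59125045) had 3001, 3020, 2937 and 2685 in DMSO and 1094, 840.1, 1129 and 976 in DTHIB, a log2 fold change of -1.53 (SE 0.070). In both genes DMSO replicate 4 and DTHIB replicate 2 were the lowest of their groups, and DTHIB replicate 3 was the highest of the treated libraries. The authors' deposited table gives log2 fold changes of -1.38 for CCNB1 and -1.49 for CCNB2.

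PLK1 and the Aurora kinases fell to 30.1% to 32.7% of their DMSO means. The polo-like kinase PLK1 (chromosome 16, 23677656 to 23690367) held 3010, 3057, 3047 and 2841 normalized counts in DMSO and 965, 866, 1087 and 997 in DTHIB, a log2 fold change of -1.61 (SE 0.053). An antisense RNA, AC008870.3, covers 553 of its exonic bases and had a mean of 0.961 normalized counts in DMSO and 0.499 in DTHIB. AURKA (chromosome 20, 56369389 to 56392337), which builds the spindle poles, had 3247, 3182, 3184 and 2943 in DMSO and 968, 849, 1078 and 879 in DTHIB, a log2 fold change of -1.74 (SE 0.059). Its processed pseudogene AURKAP1, which could take some of its reads, held 1.04 to 7.66 normalized counts in any library.

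AURKB (chromosome 17, 8204733 to 8210600), which corrects faulty attachments of chromosomes to the spindle, had 1385, 1368, 1369 and 1247 normalized counts in DMSO and 347, 411, 434 and 442 in DTHIB, a log2 fold change of -1.72 (SE 0.066). Its lowest DTHIB library was replicate 1, as in CDC25B, while replicate 4 was the lowest in WEE1 and replicate 2 in the other 7 genes.

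The enzymes that switch CDK1 on and off by its inhibitory phosphate were all lower. CDC25B (chromosome 20, 3786772 to 3806121), the phosphatase thought to start CDK1 activation at the centrosome, had 2254, 2401, 2400 and 2272 normalized counts in DMSO and 1011, 1041, 1233 and 1110.1 in DTHIB, a log2 fold change of -1.09 (SE 0.052). CDC25C (chromosome 5, 138285265 to 138338355), which acts in the feedback loop with CDK1, had the fewest counts of the 10: 533, 569, 529 and 459.9 in DMSO, and 215, 157, 197 and 184 in DTHIB. Its log2 fold change was -1.48, with the largest standard error of the 10 (0.090). Of its exonic bases 293 (8.78%) overlap exons of FAM53C on the opposite strand, a gene with a mean of 4028 normalized counts in DMSO and 3156 in DTHIB.

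WEE1 (chromosome 11, 9573681 to 9593457), the inhibitory kinase, had 1869, 1931, 1839.8 and 1783 normalized counts in DMSO and 951, 928, 1062 and 872 in DTHIB. It fell by 0.96 on the log2 scale (SE 0.051; adjusted p by limma = 3.5e-11), the only one of the 10 short of 2-fold, and 4.66% of tested genes had a lower fold change. CDC25B had the next smallest fall, with 3.84% of tested genes lower, while for the other 8 members 0.512% to 1.96% were lower.

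**Figure D2:**
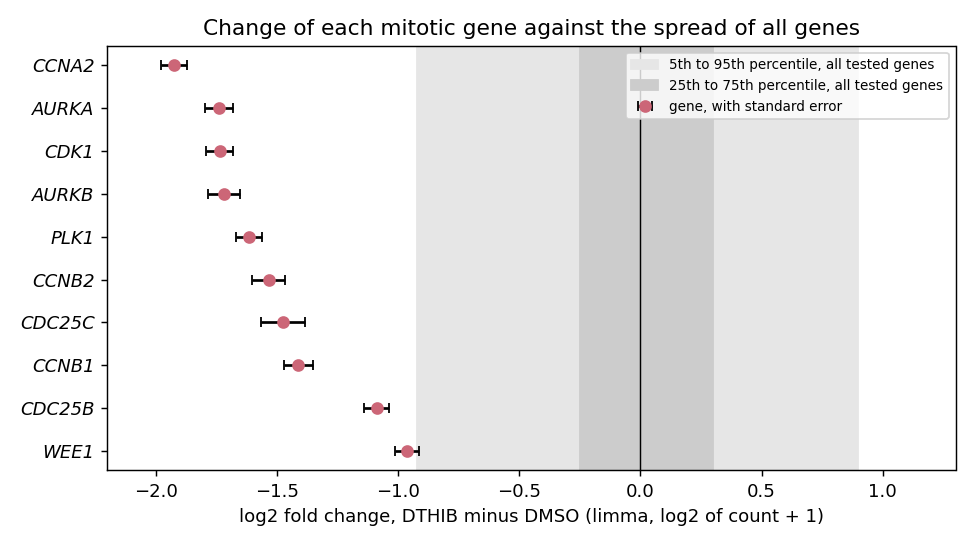
Log2 fold change, DTHIB minus DMSO, of each of the 10 genes (points, with limma standard errors), over the range of all 17194 tested genes (light band, 5th to 95th percentile, -0.92 to 0.90; dark band, 25th to 75th, -0.25 to 0.30). All 10 points lie to the left of the light band, from -1.92 for CCNA2 to -0.96 for WEE1.

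Relative to the mean, the spread of the 10 genes between replicates was larger under DTHIB. The coefficient of variation of the 10 genes was 3.33% to 8.74% in DMSO (median 4.52%) and 8.36% to 12.9% in DTHIB (median 10.5%). Within a group most of the 10 genes shared the library of their highest or lowest value. DTHIB replicate 3 was the highest treated library in 7 genes and DTHIB replicate 2 the lowest in 7; DMSO replicate 2 was the highest control in 7 and DMSO replicate 4 the lowest in 9. As median deviations from the group mean over the 10 genes, these 4 libraries stood at 0.16, -0.15, 0.05 and -0.09 on the log2 scale. The medians over all tested genes were 0.01, -0.01, 0.00 and -0.00, which library scaling holds near 0. Single genes with a mean of at least 100 normalized counts deviated with an SD of 0.11, 0.13, 0.11 and 0.11 in these libraries. Over the 8 libraries, with group means removed, the correlation between members had a median of 0.73 over the 45 pairs. These pairs share libraries and scaling. The correlation was not computed for pairs of other genes, and no test was made. AURKB went least with the rest, with a median of 0.10 over its 9 pairs, against medians of 0.59 to 0.91 for the other 9 genes.

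Levels can be compared between genes only per length, here as normalized counts per kilobase of all annotated exonic bases (GENCODE release 29), which understates a gene whose annotated exons are not all used. In DMSO the order was CDK1 (3868 ± 201 per kilobase), CCNB1 (2469 ± 96.9), AURKA (1072 ± 45.8), CCNB2 (1039 ± 55.1), CCNA2 (1016 ± 48.6), PLK1 (628 ± 21.2), AURKB (599 ± 28.7), CDC25B (541 ± 18.5), WEE1 (201 ± 6.69) and CDC25C (157 ± 13.7). The ranges over libraries overlapped among AURKA, CCNB2 and CCNA2, between PLK1 and AURKB, and between AURKB and CDC25B. The other neighbours in that order did not overlap. Under DTHIB CDK1 (1164 ± 122) and CCNB1 (933 ± 111) remained the 2 highest, now with overlapping ranges, and WEE1 (103 ± 8.63) and CDC25C (56.3 ± 7.22) the 2 lowest. CDC25B moved from the eighth place to the sixth, at 255 ± 22.9, with a range that overlapped that of CCNA2 (268 ± 24.0) and not that of PLK1 (206 ± 19.1).

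Ratios between members ask whether their transcript levels shifted relative to each other beyond the shared fall. They describe RNA, not protein or activity, and hardly depend on how a library was scaled. In bulk RNA a changed mix of cells and a change within cells cannot be told apart here either. For 9 pairs, the log2 of (normalized count + 1) of 1 gene minus that of the other was taken in each library as the log2 ratio. The groups were compared with an exact two-sided permutation test of 4 against 4, whose smallest possible p is 0.0286. Benjamini-Hochberg adjustment was over the 9. A ratio carries the genes' lengths, so only its change is described. How often other pairs of genes separate between the groups was not computed. Among single tested genes separation was common: all 4 DTHIB values lay below all 4 DMSO values in 30.8% and above them in 27.1%. WEE1 gained on its substrate CDK1: the log2 ratio WEE1/CDK1 was -3.06, -3.03, -3.06 and -2.98 in DMSO and -2.29, -2.15, -2.30 and -2.30 in DTHIB. This is a rise of 0.77 (SE 0.040), or 1.71-fold, with no overlap between groups (exact permutation p = 0.0286, adjusted p = 0.0429). WEE1 also gained on CDC25C, whose phosphatase opposes it, by 0.51 (SE 0.101; exact permutation p = 0.0286, adjusted p = 0.0429). Against CDC25B, another opposing phosphatase, the difference was 0.12 (SE 0.060), the groups overlapped, and the test was not passed (exact permutation p = 0.0857, adjusted p = 0.0964). CDC25A was not among the ratios.

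Among the cyclins, CCNA2 lost on CCNB1. CCNA2/CCNB1 was -1.18, -1.10, -1.18 and -1.15 in DMSO and -1.61, -1.62, -1.77 and -1.67 in DTHIB, a fall of 0.51 on the log2 scale (SE 0.042). CCNB2 lost on CCNB1 by a smaller amount, -0.12 (SE 0.035), and CCNB1 gained on CDK1 by 0.33 (SE 0.027). Each of these 3 ratios had no overlap between groups (exact permutation p = 0.0286, adjusted p = 0.0429).

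Among the kinases PLK1 gained on AURKA by 0.12 (SE 0.045; exact permutation p = 0.0286, adjusted p = 0.0429), with DTHIB values of -0.00, 0.03, 0.01 and 0.18 above DMSO values of -0.11, -0.06, -0.06 and -0.05. AURKB/AURKA differed by 0.02 (SE 0.114; exact permutation p = 1); its SD was 0.228 in DTHIB and 0.011 in DMSO. CDC25B/CDC25C was higher by 0.39 (SE 0.121), without passing the test (exact permutation p = 0.0571, adjusted p = 0.0735): DTHIB replicate 1 (2.23) lay below DMSO replicate 4 (2.30). Since 3 libraries against 4 allow no exact p under 0.0571, none of the 6 ratios that passed could pass without 1 library. All 6 had the smallest possible p, so the adjusted p of each depends on how many of the 9 reached it. Several of the ratios share a gene, and they are not independent.

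**Figure D3:**
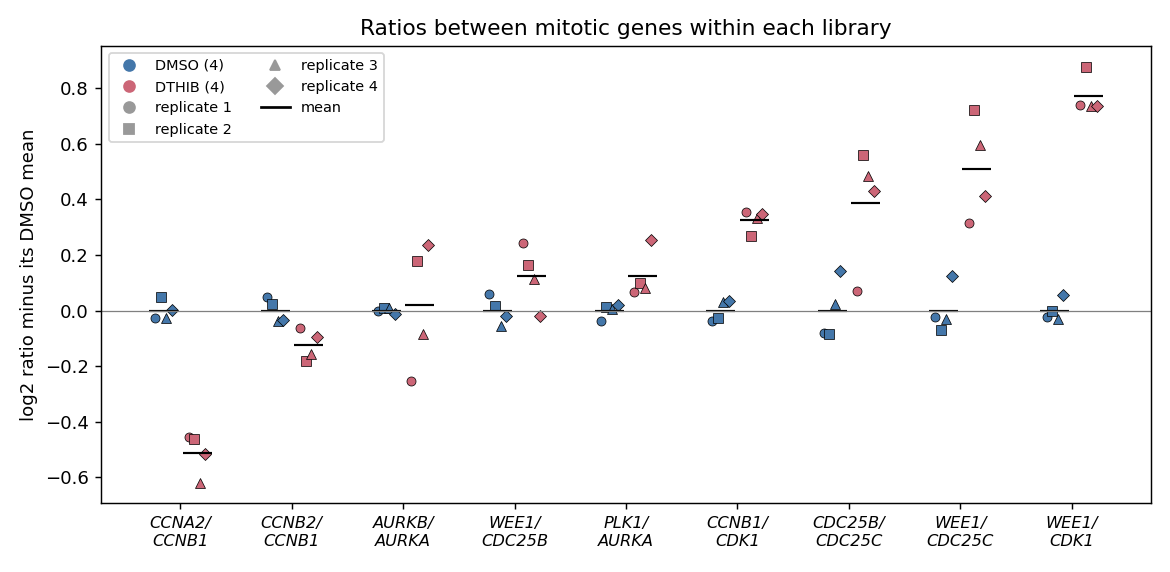
Log2 ratios of normalized counts (1 added to each) for 9 pairs of genes in each library. Each ratio is drawn as the difference from its DMSO mean. Colours mark the group, shapes the replicate number and bars the group means. CCNA2/CCNB1 lies at -0.51 and WEE1/CDK1 at 0.77 with groups far apart, while the AURKB/AURKA values of DTHIB spread on both sides of those of DMSO.

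Partners of the mitotic kinases were mostly lower. Of 11 listed activators, scaffolds and cofactors 8 fell and 2 rose, and their median was -1.16 on the log2 scale (33.7% of tested genes fell and 31.0% rose; the median of all was -0.01). TPX2, which activates AURKA on the spindle, fell from 6567 ± 235 to 2316 ± 241 normalized counts. The chromosomal passenger proteins that position AURKB fell as well: survivin (BIRC5, log2 fold change -1.72), borealin (CDCA8, -1.49) and INCENP (-1.24). The CDK1-binding proteins CKS2 (-1.48) and CKS1B (-1.16) were lower too, whereas cyclin H (CCNH, 0.34), a subunit of the CDK-activating kinase, and the LIM protein AJUBA (0.39) rose. MNAT1 (-0.12), named after its value was seen, fell, a call lost in 9 of the 17 alternative fits. CDK7 (-0.84), the catalytic subunit of the CDK-activating kinase, did not pass the test (limma adjusted p = 0.251): DMSO replicate 3 held 217 normalized counts and the other 7 libraries 11.0 to 21.9, and by edgeR the gene passed.

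Of 13 listed paralogues and near relatives of the members, 10 could be tested. Of these 6 fell and 1 rose, against 33.7% and 31.0% of all tested genes (median -0.70). CCNA1, PLK5 and WEE2 had means under 10 normalized counts. PKMYT1, the membrane-bound kinase that shares the inhibition of CDK1 with WEE1, fell from 1722 ± 93.3 to 493 ± 49.5, a log2 fold change of -1.81 against -0.96 for WEE1; the difference was not tested. CDC25A (-1.18), the centriole kinase PLK4 (-1.73), cyclin F (CCNF, -1.32) and CDK2 (-0.98) fell. PLK2, another polo-like kinase, fell by 0.19, a call that was lost without DMSO replicate 4 or without DTHIB replicate 4. CDK3 rose from 14.1 ± 4.02 to 23.6 ± 6.54, with overlapping groups, and this call was lost in 7 of the 17 alternative fits, while AURKC (-0.43), PLK3 (-0.11) and CCNB3 (0.11) did not pass.

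The factors of the CCAAT and CHR elements did not move as one. The 17 listed genes are subunits of the DREAM and B-MYB complexes and NF-Y, FOXM1, and DYRK1A, a kinase that promotes DREAM assembly. Of these 10 fell and 3 rose, against 33.7% and 31.0% of all tested genes, with a median of -0.21. Both activators of G2 genes fell: MYBL2 (B-MYB) went from 7633 ± 221 to 1981 ± 187 normalized counts, and FOXM1 from 5363 ± 161 to 1806 ± 182. LIN9, a subunit of MuvB (log2 fold change -1.45), and RBL1 (-1.16), a pocket protein that can replace RBL2 in DREAM, also fell. NFYB (-0.64) and TFDP1 (-0.59) fell by less. NFYA (-0.10), named after its value was seen, also fell, a call lost in 9 of the 17 alternative fits. Named after their values were seen, the 3 that rose were E2F5 (0.42), LIN37 (0.41) and the pocket protein RBL2 (0.11); LIN37, another MuvB subunit, lost its call under quantile normalization and in 4 of the 8 fits without 1 library. Named in the same way, E2F4 (0.02), NFYC (0.04), DYRK1A (-0.04) and TFDP2 (-0.07) did not pass the test; E2F4 and NFYC passed under quantile normalization and TFDP2 without DTHIB replicate 3.

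The machinery that destroys cyclins and ends mitosis changed unevenly. Of 19 genes of the anaphase-promoting complex (APC/C) and its partners 16 fell and 2 rose (33.7% and 31.0% of all tested genes), with a median of -0.29. Its ubiquitin-conjugating enzymes UBE2C (-1.65) and UBE2S (-0.93), the coactivator CDC20 (-1.51) and the inhibitor FBXO5 (EMI1, -1.33) fell. The other coactivator, FZR1 (CDH1), named after its value was seen, had -0.14, a call lost under quantile normalization. Named in the same way, ANAPC13 (-0.09) lost its call in 10 of the 17 alternative fits, and ANAPC2 (-0.11) and ANAPC7 (-0.09) in 5 each. The core subunits CDC23 (-0.48) and CDC27 (-0.41) fell, and ANAPC16 (0.34) and CDC16 (0.12) rose; ANAPC10 (-0.12) did not pass. Of 14 tested genes of the Greatwall kinase pathway and of the PP2A and PP1 phosphatases that undo CDK1 phosphorylation, 11 fell and 1 rose (median -0.26). Greatwall itself (MASTL) fell from 1208 ± 63.4 to 489 ± 32.6, its substrates ARPP19 and ENSA had -0.50 and -0.29, and the phosphatase subunits PPP2R1B, PPP2CA and PPP2R2D had -0.45, -0.35 and -0.31. PPP2R2C rose by 0.11, a call lost without DMSO replicate 1, DTHIB replicate 1 or DTHIB replicate 4; PPP1R2 (-0.05) and PPP1CB (-0.00) did not pass.

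Checkpoint genes that restrain CDC25 and CDK1 in G2 were also mostly lower. Of 22 listed, 16 fell and 3 rose, against 33.7% and 31.0% of all tested genes, with a median of -0.42. The kinase CHEK1, which inactivates CDC25 phosphatases, fell from 1991 ± 54.1 to 751 ± 52.6 normalized counts, and its mediator CLSPN from 1960 ± 62.2 to 591 ± 33.5. CHEK2 had -1.08, TOPBP1 -0.75 and the 14-3-3 protein gene YWHAH -0.80. YWHAB (-0.07), named after its value was seen, fell, a call lost in 12 of the 17 alternative fits. GADD45A, a stress gene that can inhibit CDK1, rose from 646 ± 34.0 to 1196 ± 55.3. Chosen after their values were seen, ATM (0.58) and TP53BP1 (0.15) also rose, and the 14-3-3 gene SFN fell from a mean of 81.4 to 9.64 normalized counts. Likewise HUS1 (0.06), RAD9A (0.03) and YWHAE (-0.45) did not pass; in YWHAE DMSO replicate 4 held 1771 normalized counts and the other DMSO libraries 548 to 627. HUS1 passed under quantile normalization and YWHAE with the replicate block.

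Set beside other parts of the cell cycle, the mitotic genes (median -1.57, 10 of 10 lower) lay near the replicative helicase. Its 11 genes all fell by at least 2-fold, with a median of -1.38. Of all tested genes 33.7% fell, 31.0% rose and 4.36% fell by at least 2-fold. No test of the difference between lists was made. GINS1 had -1.89, MCM4 -1.62, CDC45 -1.67 and MCM2 -1.37. Among G1 cyclins and their kinases 5 of 7 tested genes fell and 1 rose, with a median of -0.80: cyclin E2 (CCNE2) fell from 1169 ± 48.2 to 412 ± 14.6 normalized counts, cyclin D3 (CCND3) had -0.86, CDK2 (also among the relatives) -0.98, cyclin E1 (CCNE1) -0.80 and CDK4 -0.31, CDK6 rose by 0.52, and cyclin D1 (CCND1) held 10214 ± 156 and 10272 ± 319 normalized counts in DMSO and DTHIB (limma adjusted p = 0.823). Among 23 CDKs and cyclins with roles in transcription, splicing or outside the cycle 8 fell and 10 rose, where 33.7% and 31.0% of all tested genes did, with a median of 0.03 and a range of -0.33 to 0.80; under quantile normalization 3 fell. The splicing-linked cyclins CCNL2 (0.80) and CCNL1 (0.54) and CCNG1 (0.36) and CCNI (0.23) rose, and CDK8 (-0.33) and CCNT1 (-0.20) fell.

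**Figure D4:**
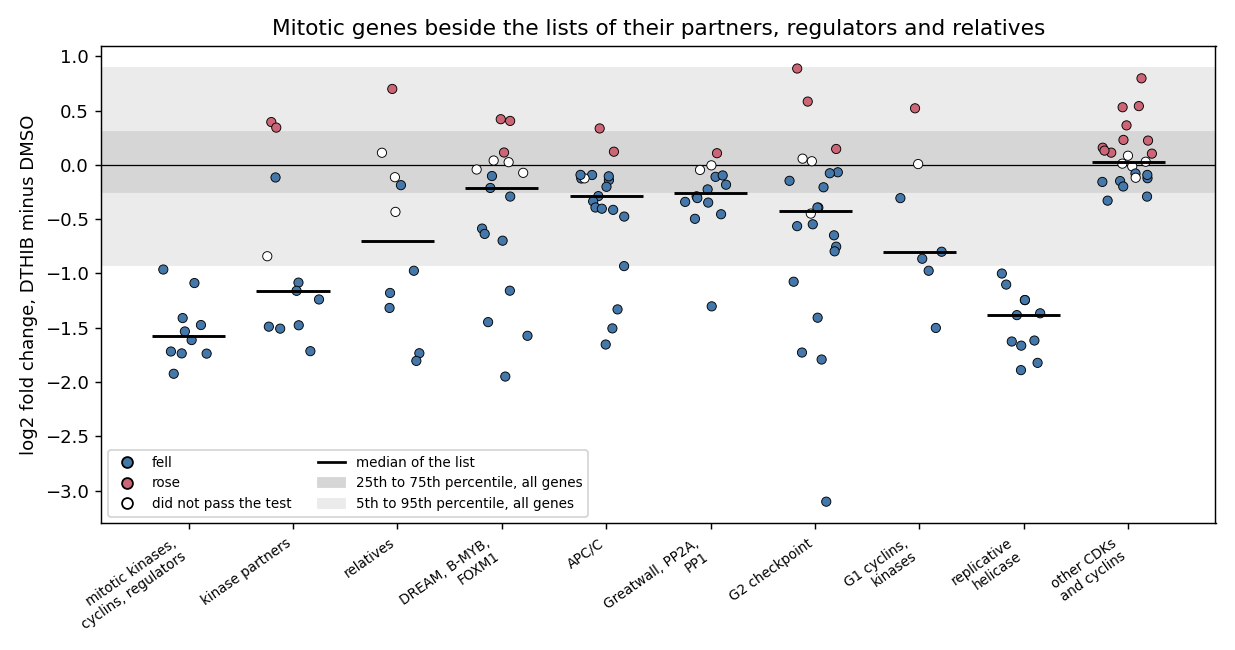
Log2 fold change, DTHIB minus DMSO, of every tested gene (points; blue fell, red rose, white did not pass) in the 10 mitotic genes and 9 lists of related genes, with list medians as bars and the ranges of all tested genes as grey bands. The mitotic genes and the replicative helicase lie wholly below the light band, and the other CDKs and cyclins lie around 0.

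The genes whose levels went most closely with the mean z-score of the 10 over the 8 libraries, among 11640 other genes with a symbol and a mean of at least 100 normalized counts, were MELK, CDCA2, ANLN, HMMR and KIF20A, with Pearson coefficients of 0.9997 to 0.9999. This likeness is a description over 8 libraries that differ mainly by group, and 20.7% of the genes compared had a coefficient above 0.95. These 5 are the kinase MELK (log2 fold change -1.88), the PP1-targeting protein CDCA2 (Repo-Man, -1.81), the spindle protein HMMR (-1.79), anillin (ANLN, -1.69), which acts in cytokinesis, and the mitotic kinesin KIF20A (-1.58). Each of the 5 values lay within the range of the 10 members.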

How the data were processed

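The submitters' notes on processing name DESeq2 (2.11.40.2), the counter featureCounts (1.6.3), the assembler StringTie (1.3.4), the aligner HISAT2 (2.1.0), the trimmer Trimmomatic (0.36.5) and GRCh38; for settings, strand and annotation release the sources used here give nothing. The deposited signal is a DESeq2-normalized count per gene and library, reads divided by a size factor. The authors also deposited a DESeq2 table with the mean signal, log2 fold change, its standard error and Wald score, p-value and adjusted p-value. In every column all values (100%) were whole multiples of 1 read within 0.01, so reads were recovered; 41967 of 58884 identifiers had a symbol.

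The 17194 genes with a mean of 10 or more entered a two-sided limma fit (3.58.1, R 4.3.3, with a trend on expression) of log2(normalized count + 1), the scale of all fold changes, adjusted by Benjamini-Hochberg. Changed, risen or fallen means adjusted p under 0.05. For DTHIB against DMSO, counts of 17194 genes were simulated with only 50 genes changed at each fold. There limma recovered 60% of genes changed 1.25-fold, 68% of those changed 1.5-fold, 82% of 2-fold changes and 98% of 4-fold changes. In the data 64.6% of tested genes were called, and with more changed genes the adjustment is less strict, so these rates need not hold there. Members and lists were chosen with earlier results of these data known. Ratios used exact permutation tests. Named are all members, up to 6 genes per list with the smallest adjusted p, those that did not fall where 5 or fewer, and the 5 genes most like the members. Alternatives were pseudocounts of 0.5 and 5, no filter, a mean of at least 50, TMM, quantile normalization, edgeR 4.0.16 and DESeq2 1.42.0 on recovered reads, a replicate block and each library left out.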

Additional observations from a re-analysis of the deposited data

Results flagged for a closer look

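Of 38 groups of 4 values checked (10 genes and 9 ratios in 2 treatments), 2 held a library far from the other 3 for the size of the group; chance flags about 1 in 20 such groups. AURKB in DMSO replicate 4 was at 1247 normalized counts, below the other 3 at 1368 to 1385, and the gap was 0.881 of the group's whole range. The log2 ratio WEE1/CDK1 in DTHIB replicate 2 was at -2.15, above the other 3 at -2.30 to -2.29, and the gap was 0.967 of the range. Both libraries were on the low side of their group in most of the 10 genes.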

How the results depend on the processing

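All 10 genes fell, and none rose, in each of the 17 alternative fits, with log2 fold changes of -1.02 to -0.88 for WEE1, and the largest adjusted p was 5.4e-09, for CDC25C. Over all genes 5164 to 5929 fell and 4258 to 5628 rose; edgeR called 5570 lower and 5560 higher, DESeq2 5216 and 5067. With the replicate block 10 of the 10 genes fell. The numbers did not pair the libraries: same-numbered deviations correlated at -0.07 to 0.01. The block brought the number of ratios past adjusted p under 0.05 from 6 to 0, as did each fit without 1 library (0 to 0), because 4 pairs allow no exact p under 0.125 and 3 libraries against 4 none under 0.0571. The AURKB/AURKA difference of 0.0195 ranged from -0.0524 to 0.110 without 1 library, and changed sign to -0.0335 without DTHIB replicate 2 and to -0.0524 without DTHIB replicate 4. Under quantile normalization 3 of the other CDKs and cyclins fell instead of 8. The APC/C list had 16 falls, but 12 under quantile normalization and 13 by DESeq2. The 1 rise among the relatives, CDK3, was 0 with a mean of at least 50 (not tested), 0 under quantile normalization, 0 by DESeq2, and 0 to 1 without 1 library; with no filter the count stayed at 1, although CDK3 itself did not pass there. The 1 rise in the Greatwall and phosphatase list, PPP2R2C, was 0 to 1 without 1 library. Depth limits genes near a mean of 10, such as CDK3, and not the 10 members, which held at least 157 normalized counts in every library.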
